A study of Homo sapiens with 18 samples.

Results

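The 9 genes described here were HMOX1, NQO1, GCLC, GCLM, TXNRD1, SRXN1, OSGIN1, FTH1 and FTL, a set of antioxidant enzyme genes controlled by NRF2 together with both ferritin genes. They were chosen by symbol, as the rows of the deposited expression table whose Ensembl identifiers carry these names, and make up 9 of the 60483 genes listed. All 9 had a mean of at least 1 TPM (transcripts counted relative to a fixed total per sample) over the 18 samples and were therefore among the 13789 genes tested. RNA was sequenced from OVCAR5, an established human ovarian cancer cell line, in 6 conditions with 3 replicates each. The control conditions were DMSO, the vehicle, and CAY10566 at 1 µM, an inhibitor of stearoyl-CoA desaturase 1 (SCD1). Each fatty acid was given at 50 µM beside either of these, as stearate+DMSO and oleate+DMSO without the inhibitor and as stearate+CAY10566 and oleate+CAY10566 with it. All cells, controls included, were kept for 24 h in medium with 5% fatty acid-free BSA.

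NRF2, encoded by NFE2L2, is a transcription factor that KEAP1 holds at a low level by directing its degradation. When oxidants or electrophiles modify KEAP1, NRF2 accumulates, pairs with a small MAF protein and binds antioxidant response elements near genes for glutathione synthesis, the thioredoxin system, quinone reduction, heme breakdown and iron storage. Ferritin, a shell of heavy (FTH1) and light (FTL) chains, stores iron in a form that cannot take part in radical chemistry, and its synthesis is also set by iron regulatory proteins that bind a hairpin in the 5′ end of both mRNAs. Stearate is a saturated fatty acid, and oleate, the product of SCD1, has the same chain length with 1 cis double bond.

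That hairpin, the iron responsive element, was looked for in all 9 genes. The motif searched was C, then any 5 bases, then CAGTG, on the transcript strand of the GENCODE release 44 canonical transcript. It was found once in the 5′ untranslated region of FTH1, at chr11:61967577-61967604 on the minus strand of GRCh38, and once in that of FTL, at chr19:48965333-48965360 on the plus strand. Both sites are shown because they are near copies of each other, with the bulged C and the loop with the base after it in capitals.
FTH1: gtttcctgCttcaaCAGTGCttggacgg
FTL: gtctcttgCttcaaCAGTGTttggacgg
The motif was not found in the 5′ untranslated regions of the other 7 members, of which those of SRXN1 (15 bases) and TXNRD1 (24 bases) are too short to hold the whole stretch of 28 bases shown. Within the first 200 bases of the transcript, a window of the same length for every gene, FTH1 and FTL were again the 2 of 9 members with a match. Among 20001 coding canonical transcripts, 1425 (7.12%) held it within that window.

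The core of the antioxidant response element was searched as TGACNNNGC on both strands of the RefSeq promoters (GRCh38.p14), which run from 250 bases before to 50 bases after a start site. The table held 8 promoters of 7 members, and 3 promoters, of GCLM and TXNRD1, held the core. The matches are shown with the core in capitals, each read 5′ to 3′ on the strand that holds it, because they mark GCLM and TXNRD1 off from NQO1, GCLC, SRXN1, OSGIN1 and FTL, which held no match in this window.
GCLM: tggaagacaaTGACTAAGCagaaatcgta
TXNRD1, first promoter: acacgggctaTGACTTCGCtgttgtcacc
TXNRD1, first promoter: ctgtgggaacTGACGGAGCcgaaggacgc
TXNRD1, second promoter: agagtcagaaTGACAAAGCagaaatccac
The GCLM site lay at chr1:93909446-93909474 on the plus strand, opposite to the gene, and the end of its 9-base core that is upstream for the gene lay at -34 from the start site. The TXNRD1 sites lay at chr12:104215670-104215698 on the plus strand, chr12:104215761-104215789 on the minus strand and chr12:104286920-104286948 on the minus strand, and the upstream ends of their cores lay at -99, -8 and -102 from their start sites. Of 35116 promoters, 4687 (13.3%) held the core. A match is a description of letters in this window, and elements farther from the start were not searched.

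The members differed widely in level. Per length, the ferritin chains led, with means over the 18 samples of 13853 TPM for FTH1 and 11195 TPM for FTL, or 1.385% and 1.12% of all TPM. TXNRD1 (chr12:104215779-104350307), the cytosolic thioredoxin reductase, had a mean of 942.6 TPM, and NQO1 (chr16:69706996-69726668), a quinone reductase, had 771.1 TPM. SRXN1 (chr20:646615-653200), the sulfiredoxin that repairs overoxidized peroxiredoxins, stood at 214.0 TPM. GCLC (chr6:53497341-53616970) and GCLM (chr1:93885199-93909456), the catalytic and modifier subunits of the enzyme that limits glutathione synthesis, stood at 71.7 and 46.2 TPM. HMOX1 (chr22:35380361-35394214), heme oxygenase 1, which breaks heme into iron, carbon monoxide and biliverdin, stood at 58.2 TPM. OSGIN1 (chr16:83931311-83966332), an oxidative stress induced growth inhibitor, was lowest at 18.9 TPM. Levels are TPM, the authors' estimate of a gene's share of all transcripts, which keeps no depth.

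**Figure D1:**
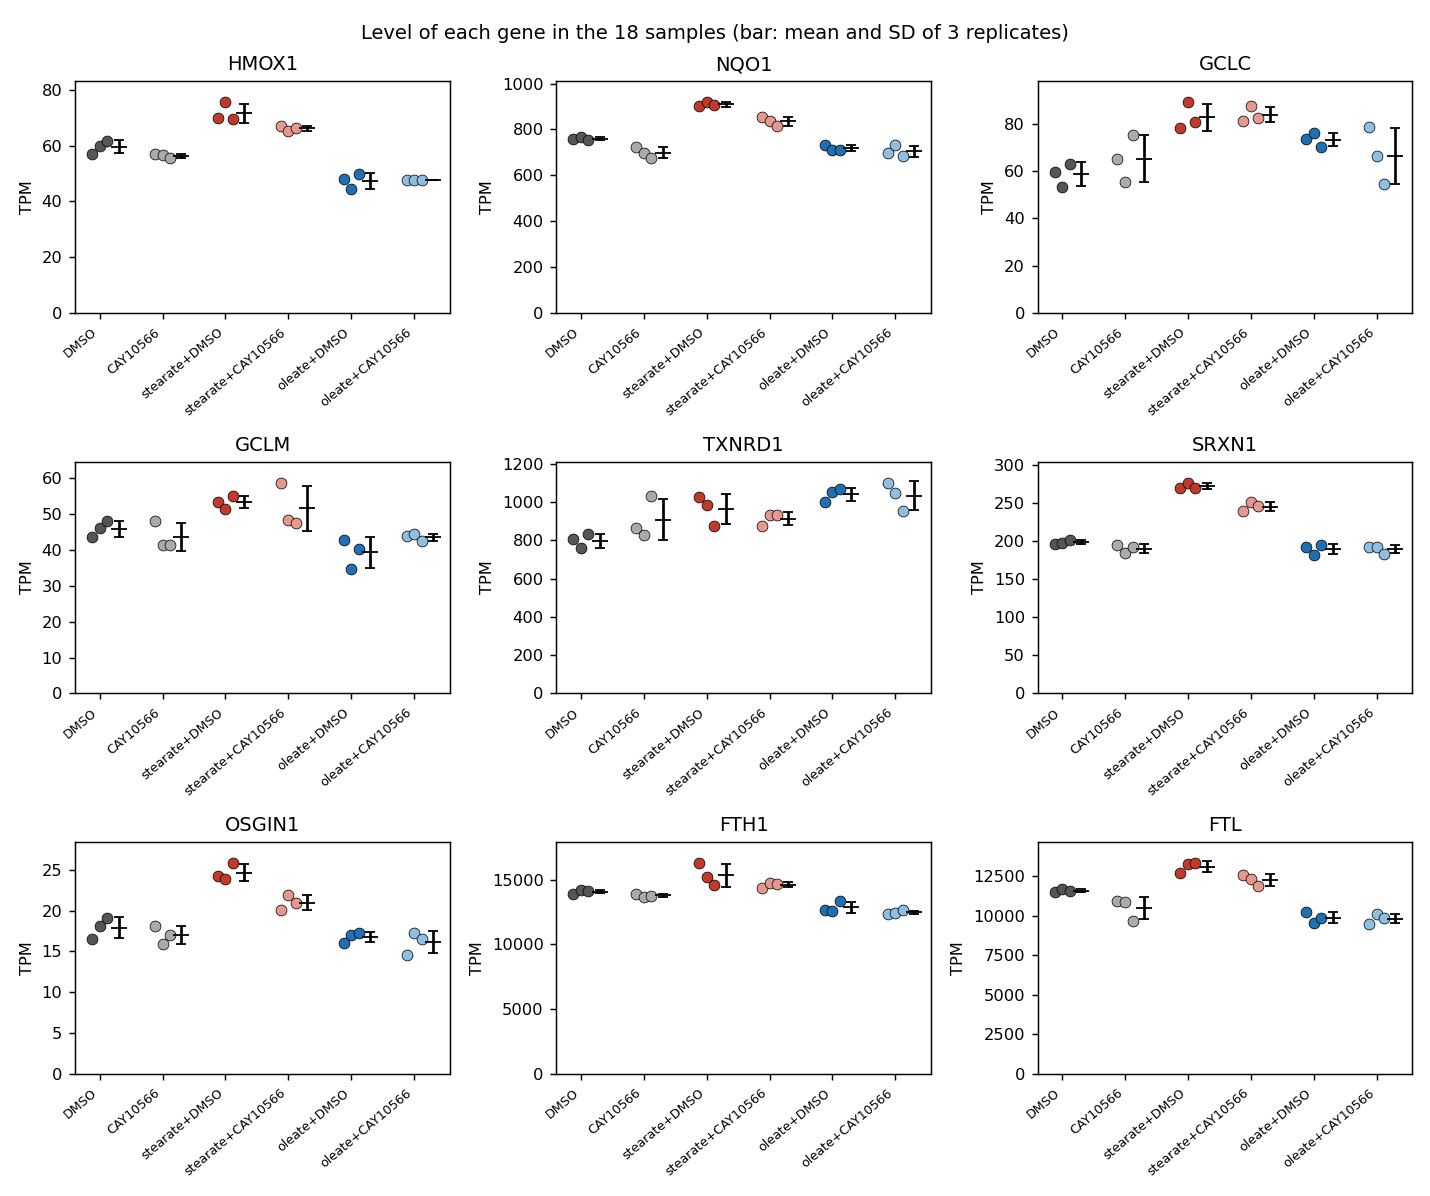
Level in TPM (y axis, from 0) of each of the 9 genes in the 6 conditions (x axis), with 1 point per replicate and the mean and SD of 3 replicates beside them. In all panels except TXNRD1 the stearate conditions have the highest means, and in TXNRD1 the oleate conditions do, at 1039.3 and 1033.2 TPM.

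The label was checked against markers. The epithelial genes EPCAM, KRT8, KRT18, KRT7 and CDH1 had means from 49.8 to 895.4 TPM, and the haematopoietic, endothelial and fibroblast genes PTPRC, PECAM1, COL1A1 and DCN had means from 0.0056 to 5.04 TPM. Of the ovarian serous markers, PAX8 was present at 11.8 TPM, whereas MUC16 (0.632 TPM) and WT1 (0.126 TPM) were nearly absent. Across genes, the correlation of log2 values ranged from 0.982 to 0.987 between replicates and from 0.978 to 0.987 between samples of different conditions. CAY10566 replicate 3 stood apart from the other 5 controls. Its values rose with transcript length relative to the mean of all samples (slope 0.03 per log2 of length), whereas the slopes of the other 5 controls were all negative, from -0.05 to -0.03. This sample had the highest control value of GCLC and TXNRD1 and the lowest of FTL, so the calls of the 9 genes and the list counts were also read without it. Slopes were also positive in every oleate sample, from 0.001 to 0.05, and ran from -0.03 to 0.03 with stearate. The trend on length thus differed between the oleate and control groups, and its cause was not tested. In bulk RNA, fewer cells of a kind and less RNA per cell cannot be told apart.

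Stearate was compared with control over 6 against 6 samples, pooled over CAY10566 and DMSO, to ask whether the saturated fatty acid changed these genes. With stearate 8 of the 9 genes rose, at a false discovery rate (FDR) under 0.05 (limma, Benjamini-Hochberg adjustment over all 13789 genes), against 13.5% of all genes tested that passed in this direction. For 7 of the 9 every stearate value lay above every control value, against 4.7% of all genes. The sizes were moderate, with a median log2 fold change of 0.24 over the 9 genes against 0.06 over all genes. Only GCLC, SRXN1 and OSGIN1 both passed and were more than 25% higher, which held for 3.46% of all genes.

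SRXN1 had the smallest p of the 9 and stood at rank 29 among all genes. Its TPM ran from 184 over a median of 196 to 201 in the controls and from 239 over 260 to 277 with stearate. The groups did not overlap, and the log2 fold change was 0.41 ± 0.03 (SE), or 1.33-fold (limma, adjusted p = 1.83e-07). GCLC values were more scattered, from 53.5 over 61.4 to 75.3 TPM in the controls and from 78.3 over 82.0 to 89.2 TPM with stearate. They did not overlap either, and the log2 fold change was 0.43 ± 0.08 (limma, adjusted p = 0.0013). OSGIN1 ran from 15.9 over 17.6 to 19.0 TPM in the controls and from 20.1 over 22.9 to 25.8 TPM with stearate. It rose by 0.37 ± 0.06 on the log2 scale without overlap (limma, adjusted p = 0.000432).

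Heme oxygenase and the quinone reductase rose by similar amounts. HMOX1 ran from 55.8 over 57.2 to 61.8 TPM in the controls and from 65.4 over 68.3 to 75.6 TPM with stearate, a log2 fold change of 0.24 ± 0.04 (limma, adjusted p = 0.000232). NQO1 ran from 677 over 738 to 766 TPM in the controls and from 816 over 877 to 919 TPM with stearate, a log2 fold change of 0.26 ± 0.03 (limma, adjusted p = 4.67e-05). Neither gene's groups overlapped. GCLM, the partner of GCLC, ran from 41.3 over 44.8 to 48.1 TPM and from 47.6 over 52.4 to 58.7 TPM, so that its groups overlapped slightly. Its log2 fold change was 0.22 ± 0.06 (limma, adjusted p = 0.0187), and once the dependence of each sample's values on transcript length and base composition (GC) was removed it was 0.09 and did not pass (adjusted p = 0.434).

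The ferritin chains rose as well, FTH1 by the smallest amount of the 8 genes that passed. FTH1 (chr11:61959718-61967634) ran from 13695 over 13897 to 14205 TPM in the controls and from 14384 over 14721 to 16279 TPM with stearate, a log2 fold change of 0.10 ± 0.03 (limma, adjusted p = 0.00862). FTL (chr19:48965309-48966879) ran from 9695 over 11209 to 11677 TPM and from 11870 over 12658 to 13335 TPM, a log2 fold change of 0.20 ± 0.04 (limma, adjusted p = 0.00149). Both were without overlap, and the FTH1 call was lost without a filter on low genes (adjusted p = 0.06). TPM values sum to the same total in every sample, so these values are shares. After rescaling by median-of-ratios size factors, which brings the median change of all genes close to 0, 5 of the 9 genes passed, and FTH1 (0.04, adjusted p = 0.329), FTL (0.14, adjusted p = 0.0708) and GCLM (0.16, adjusted p = 0.124) did not. The split of all passing genes moved with the same step, from 1856 higher and 823 lower to 1092 higher and 1405 lower.

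TXNRD1 was the exception. It ran from 759 over 829 to 1032 TPM in the controls and from 875 over 932 to 1026 TPM with stearate, so that the highest control, CAY10566 replicate 3, lay above every stearate sample. The log2 fold change was 0.14 ± 0.06 with a 95% interval of 0.02 to 0.26 (limma, adjusted p = 0.0952). Without that replicate it was 0.20 and passed (adjusted p = 0.00379). All 9 genes then passed as higher, and so did 20.3% of all genes.

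Oleate, at the same dose and time and against the same 6 controls, gave a different set of changes. HMOX1, FTH1 and FTL fell and TXNRD1 rose, and the other 5 members did not pass. Over all genes tested 2.7% passed as lower and 23% as higher, and the median log2 fold change was -0.08 for the 9 genes against 0.09 for all. In 2 members, HMOX1 and FTH1, every oleate value lay below every control value, which held for 0.573% of all genes. None of the 9 both passed and changed by a factor as large as that 25% rise.

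HMOX1 ran from 44.3 over 47.8 to 49.7 TPM with oleate, below the lowest control at 55.8 TPM, and fell by 0.28 ± 0.04 on the log2 scale (limma, adjusted p = 0.000381). FTH1 ran from 12364 over 12587 to 13380 TPM, below the lowest control at 13695 TPM, and fell by 0.14 ± 0.03 (limma, adjusted p = 0.0026). FTL ran from 9511 over 9872 to 10238 TPM and overlapped the controls only through CAY10566 replicate 3 at 9695 TPM. It fell by 0.16 ± 0.04 (limma, adjusted p = 0.00718). TXNRD1 ran from 953 over 1048 to 1101 TPM, overlapping the same replicate at 1032 TPM, and rose by 0.28 ± 0.06 (limma, adjusted p = 0.00328). These 4 calls kept their direction and passed with size factors as well. They also passed with the length and GC trend removed, where TXNRD1 rose by 0.17.

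The other 5 genes did not pass with oleate. NQO1 ran from 685 over 711 to 733 TPM (log2 fold change -0.04, 95% interval -0.11 to 0.04) and SRXN1 from 182 over 192 to 195 TPM (-0.04, -0.11 to 0.04). OSGIN1 ran from 14.6 over 16.8 to 17.2 TPM, with a log2 fold change of -0.08 (-0.21 to 0.05). GCLM ran from 34.6 over 42.7 to 44.3 TPM, with a log2 fold change of -0.11 (-0.24 to 0.02), and passed as lower once the length and GC trend was removed (-0.26, adjusted p = 0.0287). GCLC, from 54.6 over 72.0 to 78.5 TPM, had a log2 fold change of 0.17 ± 0.08 (limma, adjusted p = 0.133), and passed without CAY10566 replicate 3 (0.23, adjusted p = 0.0258) or oleate+CAY10566 replicate 3 (0.24, adjusted p = 0.017). With size factors, 7 of the 9 genes passed, 6 lower and 1 higher, since NQO1 (-0.14), SRXN1 (-0.13) and OSGIN1 (-0.18) then also fell. Over all genes that step took the split from 3169 higher and 372 lower to 1251 higher and 1257 lower.

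**Figure D2:**
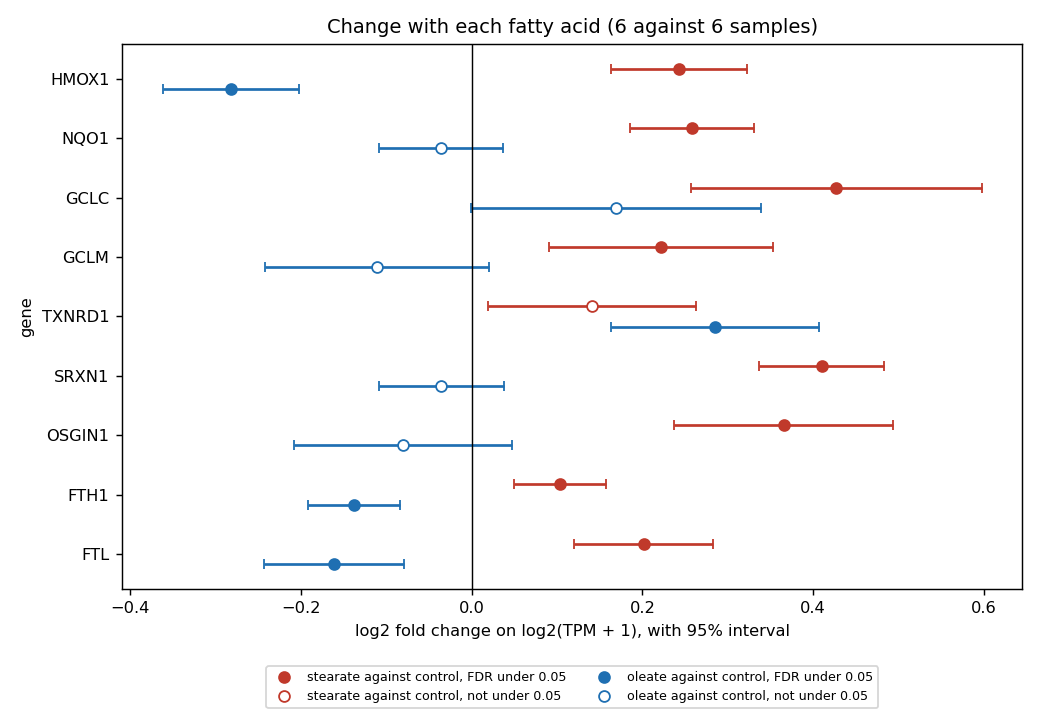
Log2 fold change on log2(TPM + 1) (x axis, bars show the 95% interval) of each gene (y axis) for stearate in red and oleate in blue against the same 6 controls, with filled points where the FDR was under 0.05. The stearate points lie right of 0 for all 9 genes, and the oleate points lie left of 0 for all but GCLC (0.17) and TXNRD1 (0.28).

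Set directly against each other at 50 µM and 24 h, the saturated and the monounsaturated fatty acid differed in 8 of the 9 genes. All 8 were higher with stearate (limma with Benjamini-Hochberg adjustment), against 6.85% of all genes in this direction. In 5 of them, HMOX1, GCLM, SRXN1, OSGIN1 and FTL, the level was also more than 25% higher, against 1.6% of all genes. For 7 of the 9 every stearate value lay above every oleate value, against 2.94% of all genes. HMOX1 differed most, by 0.53 on the log2 scale (95% interval 0.45 to 0.60, adjusted p = 1.05e-08), which is 1.44-fold. SRXN1 differed by 0.45 (0.37 to 0.52, adjusted p = 2.86e-08) and OSGIN1 by 0.45 (0.32 to 0.57, adjusted p = 3.79e-05). FTL differed by 0.36 (0.28 to 0.44, adjusted p = 1.76e-06) and FTH1 by 0.24 (0.19 to 0.30, adjusted p = 1.63e-06). The difference was 0.29 for NQO1 (0.22 to 0.37), 0.33 for GCLM (0.20 to 0.46) and 0.26 for GCLC (0.09 to 0.43, adjusted p = 0.0293). The GCLC groups met at 78.3 TPM with stearate and 78.5 TPM with oleate, and the call was lost without a filter on low genes (adjusted p = 0.0754) and in 4 of the 12 fits that left out a sample, namely stearate+DMSO replicate 2, stearate+CAY10566 replicate 2, oleate+CAY10566 replicate 2 or oleate+CAY10566 replicate 3 (adjusted p up to 0.0622). For TXNRD1 the difference was -0.14 (-0.27 to -0.02, adjusted p = 0.0861), which did not pass. It passed as lower with stearate when stearate+DMSO replicate 1 was left out (-0.17, adjusted p = 0.0485).

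CAY10566 was compared with DMSO to ask what blocking SCD1 did on its own and beside each fatty acid. Over 9 against 9 samples, with the fatty acid in the model, none of the 9 genes passed in limma, and 0% of all genes did. At an unadjusted p under 0.05, 5 of the 9 were lower with CAY10566, against 5.42% of all genes in either direction. NQO1 was the nearest to the threshold, with a log2 fold change of -0.09 ± 0.02 at rank 10 of all genes (adjusted p = 0.343). The other 4 were SRXN1 (-0.07), OSGIN1 (-0.12), FTH1 (-0.05) and FTL (-0.08). No alternative setting that was run brought any of the 9 past the threshold in this comparison.

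Within single fatty acid groups, at 3 against 3 samples, none of the 9 genes passed either. In the controls 0% of all genes passed and 3 of the 9 had an unadjusted p under 0.05, against 10.1% of all genes. With oleate 0% passed, and 0 of the 9 had such a p, against 4.72% of all genes. With stearate 0.0145% of all genes passed, and 5 of the 9 had an unadjusted p under 0.05, against 5.52% of all genes. Those 5, HMOX1, NQO1, SRXN1, OSGIN1 and FTL, had lower values in every stearate+CAY10566 sample than in any stearate+DMSO sample, which held for 8.66% of all genes. SRXN1 was at 239, 251 and 245 TPM with stearate+CAY10566 against 270, 277 and 269 TPM with stearate+DMSO. OSGIN1 was at 20.1, 21.9 and 21.0 TPM against 24.2, 23.9 and 25.8 TPM. These differences, of -0.15 (adjusted p = 0.393) and -0.22 (adjusted p = 0.723) on the log2 scale in limma, remained outside the threshold over all genes. NQO1 was at 854, 839 and 816 TPM with stearate+CAY10566 against 900, 919 and 907 TPM with stearate+DMSO, a difference of -0.12 (adjusted p = 0.504).

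The stearate effect was then read in each arm. Without the inhibitor 8 of the 9 genes rose in stearate+DMSO against DMSO, against 10.5% of all genes, and in all 9 the groups did not overlap, against 28.4% of all genes. GCLM was the member that did not pass, at 0.21 (limma, adjusted p = 0.107). The count fell from 8 to 5 without DMSO replicate 2, without stearate+DMSO replicate 2, without a filter on low genes and with size factors. With the inhibitor 5 of the 9 rose in stearate+CAY10566 against CAY10566, against 2.18% of all genes, and 7 did not overlap, against 11.9% of all genes. The 5 were HMOX1 (0.23), NQO1 (0.26), SRXN1 (0.37), OSGIN1 (0.29) and FTL (0.22), and 3 of the 9 passed with size factors. NQO1 gave nearly the same value in both arms, 0.26 in each. SRXN1 was at 196, 197 and 201 TPM in DMSO and at 195, 184 and 192 TPM in CAY10566, and its log2 fold change was 0.45 without and 0.37 with the inhibitor. OSGIN1 was at 16.5, 18.2 and 19.0 TPM in DMSO and 18.1, 15.9 and 17.1 TPM in CAY10566, with log2 fold changes of 0.44 and 0.29. TXNRD1 had 0.27 ± 0.08 without and 0.01 ± 0.08 with the inhibitor, and its CAY10566 samples were at 866, 827 and 1032 TPM.

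The difference between the arms was tested as an interaction. None of the 9 genes passed for stearate, where 0.00725% of all genes did. At an unadjusted p under 0.05 only TXNRD1 was found (-0.25, 95% interval -0.48 to -0.03, adjusted p = 0.514), against 9.36% of all genes. The intervals of the other 8 covered 0, for example -0.19 to 0.02 for SRXN1 and -0.09 to 0.09 for NQO1. None passed for oleate, where 0% of all genes did, and NQO1 and FTL had an unadjusted p under 0.05, against 10.3% of all genes. A loss of the passing call in 1 arm is therefore not shown to be a difference between the arms.

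**Figure D3:**
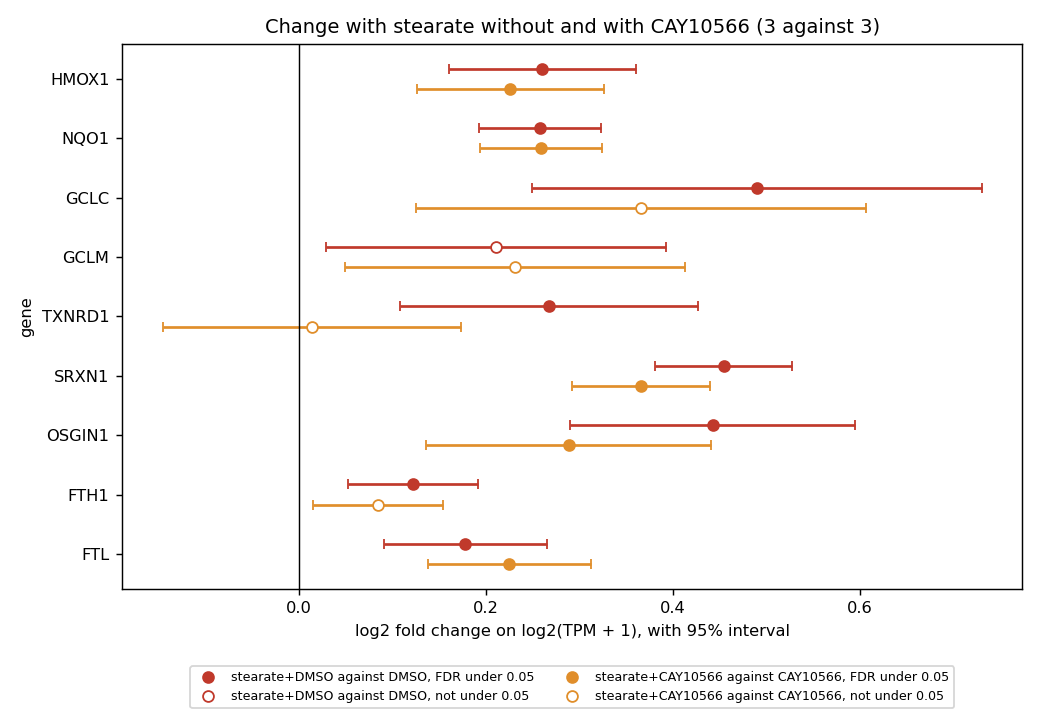
Log2 fold change on log2(TPM + 1) (x axis, bars show the 95% interval) of each gene (y axis) for stearate+DMSO against DMSO in red and stearate+CAY10566 against CAY10566 in orange, 3 against 3 samples each, with filled points where the FDR was under 0.05. The intervals of the arms overlap for every gene, and the widest gap is that of TXNRD1, at 0.27 and 0.01.

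For oleate without the inhibitor, HMOX1 (-0.33), FTH1 (-0.13) and FTL (-0.23) fell in oleate+DMSO against DMSO, where 3.1% of all genes passed as lower, and TXNRD1 (0.38) rose, where 21.1% passed as higher. HMOX1 was at 48.1, 44.3 and 49.7 TPM in oleate+DMSO against 57.2, 60.1 and 61.8 TPM in DMSO. In 6 of the 9 genes the oleate+DMSO values lay wholly below DMSO, against 7.46% of all genes, and in GCLC and TXNRD1 wholly above, against 35.4% of all genes. With the inhibitor, none of the 9 passed in oleate+CAY10566 against CAY10566, where 0.109% of all genes did. At an unadjusted p under 0.05 there were 4 members, HMOX1, FTH1, FTL and TXNRD1, against 13.4% of all genes. HMOX1 was at 47.9, 47.8 and 47.8 TPM in oleate+CAY10566 and at 57.2, 56.5 and 55.8 TPM in CAY10566, a log2 fold change of -0.24 (limma, adjusted p = 0.0585). HMOX1 and FTH1 were the 2 members that lay wholly below, against 2.73% of all genes. Without CAY10566 replicate 3, 4 members passed in this arm, 3 lower and 1 higher, and 4.96% of all genes then passed in either direction. With size factors more members passed in both oleate arms, as given in the section on processing. Of 13789 genes, 2740 then passed in oleate+DMSO against DMSO and 41 in oleate+CAY10566 against CAY10566.

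The order of the 6 condition means was the same in SRXN1, OSGIN1, FTH1 and FTL, running from stearate+DMSO over stearate+CAY10566, DMSO, CAY10566 and oleate+DMSO to oleate+CAY10566. HMOX1 and GCLM differed from it only in that oleate+CAY10566 lay above oleate+DMSO. Every stearate+CAY10566 value lay above every DMSO value in 8 of the 9 genes, all but GCLM, against 21.7% of all genes, and in HMOX1, NQO1, SRXN1, OSGIN1, FTH1 and FTL these conditions were neighbours in the order. The CAY10566 and oleate+DMSO values of SRXN1, OSGIN1 and FTL overlapped, as did those of both oleate conditions in all 4 genes. The highest condition mean was 1.23 times the lowest for FTH1 and 1.53 times for OSGIN1, with the other members between. TXNRD1 ran differently, from oleate+DMSO and oleate+CAY10566 at the top to DMSO at the bottom, with no pair of neighbours free of overlap. GCLC had both stearate conditions at the top and DMSO, at 58.8 ± 4.89 TPM (SD, n = 3), at the bottom. The replicates of GCLC spread most, with a coefficient of variation of 17.9% in oleate+CAY10566 and 15.1% in CAY10566, against at most 5.81% in any condition for HMOX1.

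Since the chains of ferritin and the subunits of glutamate-cysteine ligase form 1 protein each, their ratio was compared within samples, with an exact permutation test of 6 against 6 samples, two-sided and adjusted over 4 tests. FTH1 to FTL was 1.27 ± 0.08 (SD, n = 6) in the controls, 1.18 ± 0.07 with stearate (exact permutation adjusted p = 0.104) and 1.29 ± 0.05 with oleate (exact permutation adjusted p = 0.591). GCLC to GCLM was 1.39 ± 0.22 (SD, n = 6) in the controls, 1.60 ± 0.18 with stearate (exact permutation adjusted p = 0.104) and 1.71 ± 0.31 with oleate (exact permutation adjusted p = 0.104). No ratio passed with all samples. The CAY10566 replicate 3 ratio of 1.82 was the highest control for GCLC to GCLM, and without it the ratio was higher with stearate (exact permutation adjusted p = 0.0173) and with oleate (exact permutation adjusted p = 0.0476). Reads from ferritin pseudogenes could be split between copies, and the table listed 25 FTH1 pseudogenes summing to at most 0.236% of FTH1 and 16 FTL pseudogenes summing to at most 0.0994% of FTL in any sample. The antisense neighbours NQO1-DT and GCLC-AS1 stayed at or below 2.8 TPM.

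**Figure D4:**
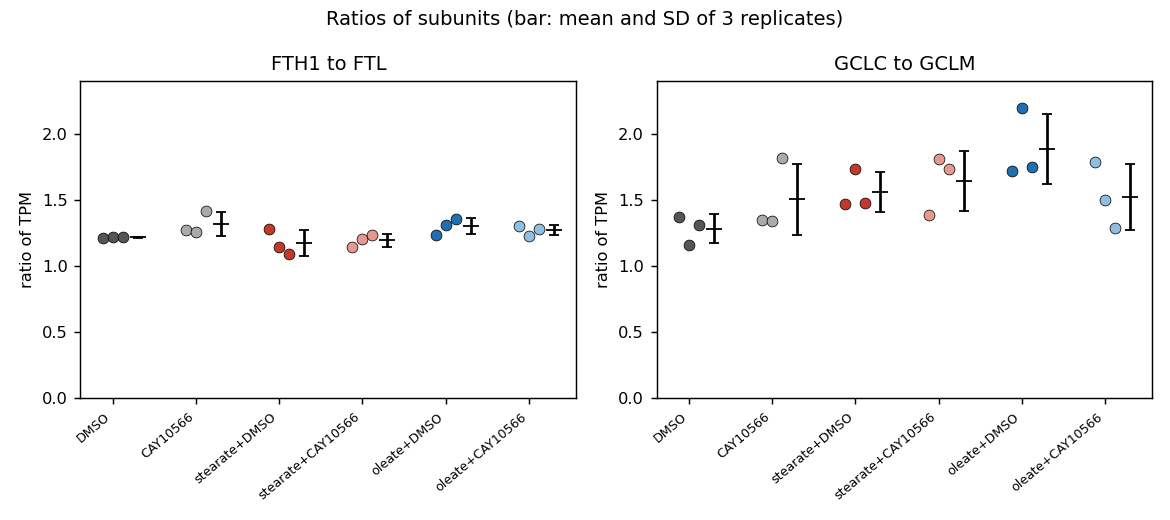
Ratio of TPM (y axis, from 0) of FTH1 to FTL and of GCLC to GCLM in the 6 conditions (x axis), with 1 point per replicate and the mean and SD of 3 replicates beside them. FTH1 to FTL stays between 1.09 and 1.42 in all 18 samples, and GCLC to GCLM runs from 1.16 to 2.20.

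Around the 9 genes, 8 lists of redox and iron genes were read, with 120 genes in all, of which 111 were tested. For stearate against control, the medians of the lists lay between -0.01 and 0.10 on the log2 scale against 0.06 for all genes. The counts below stand beside 13.5% of all genes that rose and 5.97% that fell, and several lists lay near these shares. Of 12 NRF2 regulators 2 rose and 1 fell. SQSTM1, the autophagy receptor that binds KEAP1, rose from 1023 ± 48.9 to 1357 ± 121 TPM (SD, n = 6 in each group), by 0.40 on the log2 scale (limma, adjusted p = 1.02e-05). NFE2L2 itself was at 77.4 ± 2.44 and 85.5 ± 4.12 TPM, a rise of 0.14 (adjusted p = 0.0111), and KEAP1 at 32.6 and 34.1 TPM did not pass (0.06, adjusted p = 0.447). These last genes were added to the text after their values were seen. Of 21 genes of glutathione synthesis and use 5 rose and 1 fell. MGST2, a microsomal glutathione transferase, rose by 0.25 (adjusted p = 0.0165), and SLC7A11, the cystine carrier, had 0.24 and did not pass (adjusted p = 0.0677).

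In the thioredoxin and peroxiredoxin system 3 of 15 genes rose and 1 fell with stearate. The one that fell was TXNRD2, the mitochondrial counterpart of TXNRD1, from 57.0 to 63.9 TPM in the controls and from 33.9 to 42.5 TPM with stearate. Its groups did not overlap, it fell by 0.68 on the log2 scale (limma, adjusted p = 2.35e-08), and with oleate it stood at 59.8 to 69.8 TPM. SESN2, a stress induced sestrin, rose by 0.38 (adjusted p = 9.74e-05). Of 17 other NRF2 targets of detoxification 4 rose and 2 fell. Both that fell were aldo-keto reductases, AKR1C2 from 23.1 ± 0.873 to 13.8 ± 2.54 TPM (SD, n = 6 in each group; log2 fold change -0.72, limma adjusted p = 0.000164) and AKR1B10 from 6.98 to 5.08 TPM (-0.39, adjusted p = 0.00481). AKR1C1, a near-identical paralog of AKR1C2 and named for that reason, had 0.30 (adjusted p = 0.0683), and reads may be split between these copies.

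Among heme genes 3 of 13 rose and 1 fell. ALAS1, which makes the first precursor of heme, rose from 119 ± 4.10 to 139 ± 4.10 TPM (SD, n = 6 in each group), by 0.22 on the log2 scale (limma, adjusted p = 2.32e-05), and FECH, which inserts the iron, rose by 0.24 (adjusted p = 0.0284). Among genes of iron uptake, export and sensing 2 of 15 rose, including NCOA4, the receptor that delivers ferritin to lysosomes (0.19, adjusted p = 0.00316). IREB2, an iron regulatory protein, had 0.18 and did not pass (adjusted p = 0.0963). In superoxide and lipid peroxide defence 2 of 10 rose and 1 fell. The 2 were CAT, the catalase gene (0.37, adjusted p = 0.00528), and GCH1, which makes tetrahydrobiopterin (0.33, adjusted p = 0.000319). With size factors 7.92% of all genes passed as higher and 10.2% as lower with stearate. The glutathione list then had 1 higher and 2 lower, the thioredoxin and iron lists 1 and 3 each, the detoxification targets 1 and 3, the NRF2 regulators 1 and 2, the heme genes 2 and 1, and superoxide and lipid peroxide defence 2 and 2, and NFE2L2 and MGST2 no longer passed. Without CAY10566 replicate 3 the iron genes that rose went from 2 to 5, the NRF2 regulators from 2 to 4, the heme genes from 3 to 5 and the thioredoxin genes from 3 to 2, while 20.3% of all genes rose and 6.53% fell. With the length and GC trend removed the glutathione list had 2 higher and 0 lower, the thioredoxin list 2 and 4, and the iron list 1 and 3. The NRF2 regulators then had 1 and 1, the detoxification targets 4 and 3, and superoxide and lipid peroxide defence 2 and 2. Of all genes 7.69% passed as higher and 10.3% as lower in that setting.

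A further list holds genes that supply NADPH, the reductant on which thioredoxin reductase and NQO1 draw. With stearate 4 of 8 rose and 1 fell, and with oleate 7 fell and 1, MTHFD1, named here for that count, rose, with a median log2 fold change of -0.15 against 0.09 for all genes. ME1, the cytosolic malic enzyme, stood at 25.4 ± 0.969 TPM in the controls, 28.6 ± 0.918 with stearate and 20.9 ± 0.840 with oleate (SD, n = 6 in each group). It rose by 0.16 with stearate (limma, adjusted p = 0.0044) and fell by 0.27 with oleate (adjusted p = 0.000382). IDH1, the cytosolic isocitrate dehydrogenase, rose by 0.30 with stearate (adjusted p = 3.67e-05) and fell by 0.20 with oleate (adjusted p = 0.0032). The count of 7 lower with oleate was also 7 with size factors, with the length and GC trend removed and without CAY10566 replicate 3, whereas the 4 higher with stearate became 1 with size factors, IDH1, and ME1 no longer passed. The 1 that fell with stearate became 2 with size factors, with the length and GC trend removed and without CAY10566 replicate 3. The rise of MTHFD1 with oleate was lost with size factors and with the length and GC trend removed, where 0 genes of the list passed as higher.

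Oleate gave medians from -0.15 to 0.16 over the lists against 0.09 for all genes. Since 23% of all genes rose and 2.7% fell with oleate, more rises than falls in a list is no feature of that list. Of the NRF2 regulators 6 of 12 rose and none fell. BACH1, a repressor that competes with NRF2 at HMOX1 and the ferritin genes, ran from 12.9 to 24.8 TPM in the controls and from 19.4 to 23.8 TPM with oleate, and rose by 0.39 (limma, adjusted p = 0.0236). GSK3B, a kinase that marks NRF2 for degradation, rose by 0.30 (adjusted p = 0.017), and BTRC, the ligase subunit that acts on that mark, had 0.26 and did not pass (adjusted p = 0.202). Of the glutathione genes 7 rose and 3 fell, with the transporter gene ABCC4 (0.31, adjusted p = 0.0136) and SLC7A11 (0.30, adjusted p = 0.0212) among those that rose. Of the thioredoxin genes 4 rose and 3 fell, among them TXN2 (0.16, adjusted p = 0.0313) and PRDX6 (-0.17, adjusted p = 0.00624).

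Of the iron genes 6 of 15 rose with oleate and none fell. They included TFRC, the transferrin receptor, from 275 ± 18.0 to 327 ± 23.6 TPM (SD, n = 6 in each group; 0.25 on the log2 scale, limma adjusted p = 0.0029), and IREB2 (0.34, adjusted p = 0.00512). FTH1 and FTL were lower in the same samples, and a link between these changes was not tested. Of the detoxification targets 2 of 17 fell, AKR1B10 among them (-0.26, adjusted p = 0.0427), and AKR1C2 did not pass (-0.29, adjusted p = 0.0599). Of the heme genes 1 of 13 fell, and it was ALAS1 (-0.11, adjusted p = 0.0121), while FECH did not pass (0.19, adjusted p = 0.0602). In the last list 2 of 10 rose, ACSL4 (0.21, adjusted p = 0.0359) and GCH1 (0.17, adjusted p = 0.0269). These upward counts depended on the scaling, as did those of all genes. With size factors 9.07% of all genes passed as higher and 9.12% as lower. The NRF2 regulators then had 3 higher and 1 lower, the iron genes 3 and 2, the glutathione genes 3 and 6, the thioredoxin genes 0 and 6, the detoxification targets 0 and 7, the heme genes 0 and 2, and superoxide and lipid peroxide defence 0 and 2. AKR1C2 then passed as lower (-0.38, adjusted p = 0.0262). BACH1, GSK3B, SLC7A11, TXN2, ACSL4 and GCH1 no longer passed with size factors, whereas TFRC, IREB2 and ABCC4 still did. With the length and GC trend removed the iron genes had 0 higher and 2 lower, the glutathione genes 0 and 4, the NRF2 regulators 2 and 1, the thioredoxin genes 2 and 3, and superoxide and lipid peroxide defence 0 and 0, so TFRC, IREB2, ABCC4 and SLC7A11 did not pass as higher there. Of all genes 5.5% then passed as higher and 6.31% as lower. Without CAY10566 replicate 3 the iron genes had 8 higher and 1 lower, the heme genes 1 and 1, the detoxification targets 0 and 3 and the thioredoxin genes 3 and 3, while 30.1% of all genes rose and 4.11% fell. CAY10566 against DMSO gave 0 passing genes in every list.

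**Figure D5:**
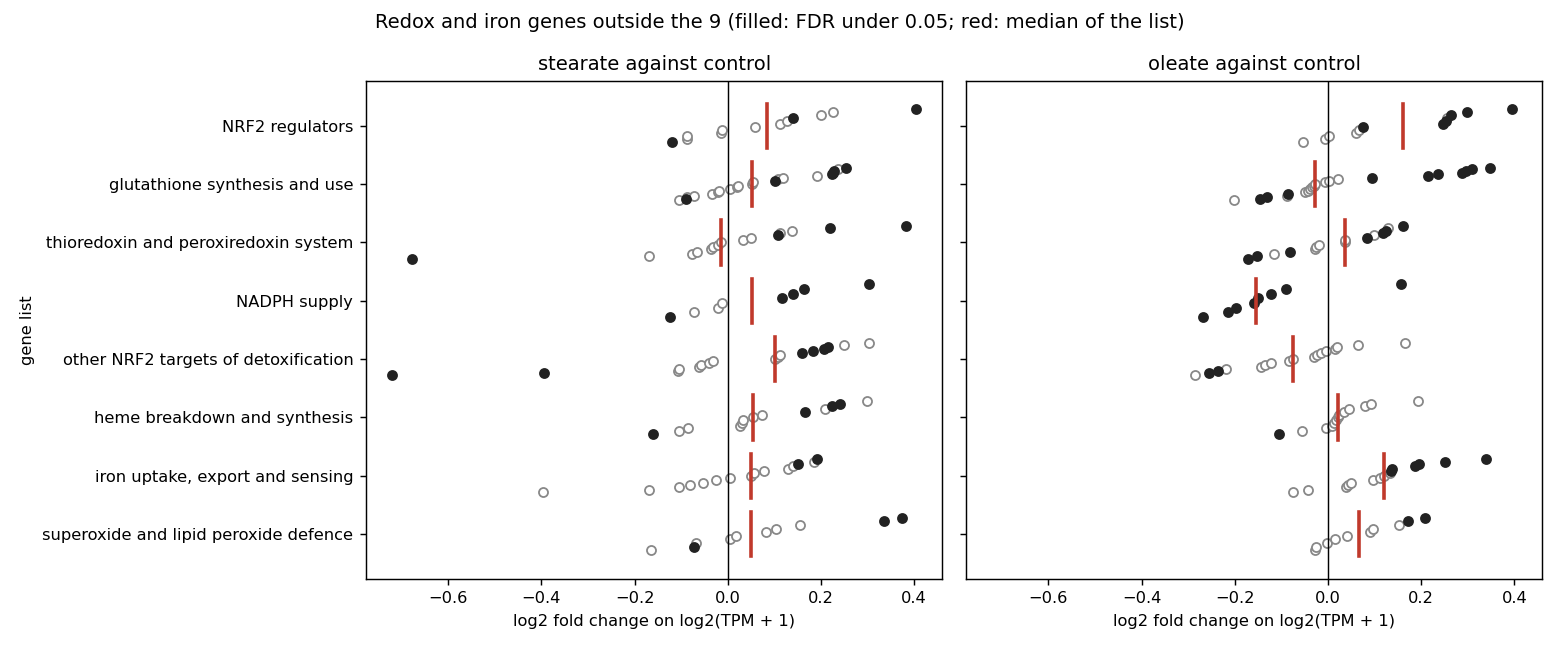
Log2 fold change on log2(TPM + 1) (x axis) of the tested genes of the 8 lists (y axis), for stearate in the left panel and oleate in the right panel against the same controls, with 1 point per gene, filled where the FDR was under 0.05, and the median of the list as a red bar. The NADPH supply genes lie left of 0 with oleate except MTHFD1 (0.16), and the lowest points with stearate are AKR1C2 (-0.72) and TXNRD2 (-0.68).

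As a description of how the members varied together, Pearson correlations of log2(TPM + 1) were taken over the 18 samples, which share 1 table and its scaling and hold the condition differences given above. The highest between members were those of NQO1 and SRXN1 (r = 0.962) and of HMOX1 and FTL (r = 0.945), and FTH1 and FTL had r = 0.868. After each condition's mean was subtracted, these became 0.273, 0.365 and -0.205. TXNRD1 correlated with GCLC (r = 0.519 over samples and 0.748 within conditions) and ran against FTL (-0.486 and -0.775). The trend on length was left in these values, and the canonical transcripts have 3860 bases for TXNRD1, 3785 for GCLC and 871 for FTL. CAY10566 replicate 3, with the highest control TXNRD1 and GCLC and the lowest control FTL, was included. Among 10141 other genes whose mean TPM reached 5, the most like 8 of the members were DHRS7 for HMOX1 (r = 0.954), ATF4 for NQO1 (r = 0.972), RRM2B for GCLC (r = 0.919), CRIPT for GCLM (r = 0.896) and ANKRD33B for TXNRD1 (r = 0.98). They were DHRS2 for SRXN1 (r = 0.975), SRXN1 for OSGIN1 (r = 0.939) and HMGN2 for FTL (r = 0.975).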

How the data were processed

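RNA from OVCAR5 cells was measured in 18 samples, with groups and replicate numbers taken from the sample labels. Paired-end reads of 100 bp had been trimmed (Trim Galore), aligned to GRCh38 with Ensembl release 99 (STAR 2.7.1a) and quantified by the authors with RSEM. The deposited values are TPM per gene. TPM keeps no depth, so precision comes only from the spread between replicates, and since the study's methods give triplicate treatments but not, for these samples, whether they were independent experiments, p-values measure the spread between these samples, which may be partly technical. 1 line that names no gene was left out. Symbols were found for 56321 identifiers (93.1%).

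Limma 3.58.1 in R 4.3.3 (lmFit, eBayes with trend, two-sided) was fitted to log2(TPM + 1) of the 13789 genes whose mean TPM was 1 or more, with Benjamini-Hochberg adjustment over all of them. Fold changes on this scale understate the change of low genes. Fatty acid comparisons used 3 groups of 6 samples, CAY10566 over 9 against 9 had the fatty acid as a covariate, and arms and interactions came from a model of 6 conditions. The comparisons with control share their control samples. Pairing by replicate number was checked by the correlation of deviations from condition means. Coordinates, transcripts and 5′ untranslated regions come from GENCODE release 44 on GRCh38. The procedure was tested on simulated data.

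The members and lists were chosen with earlier results of these data known. Genes named from the lists are the 2 with the largest change for each fatty acid among those whose mean TPM reached 5, and others are named as such. Results of some genes that meet this rule are not reported here. Alternatives were a pseudocount of 0.1, no filter, a filter at a mean TPM of 5, no variance trend, size factors, the replicate block, CAY10566 as a covariate, each sample left out and, chosen after seeing the data, removal of each sample's trend on length and GC content (13627 genes) and the list counts under other settings. Other cell lines and assays of the study were not analysed here.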

Additional observations from a re-analysis of the deposited data

Results flagged for a closer look

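In 27 groups of 6 samples, 3 for each of the 9 genes, 2 held a sample far from the others by Dixon's criterion at the 95% level, which chance alone meets in about 1 in 20 groups. HMOX1 in oleate+DMSO replicate 2 was at 44.3 TPM, below the other oleate samples at 47.8 to 49.7 TPM, a gap of 0.648 of the group's range. FTH1 in oleate+DMSO replicate 3 was at 13380 TPM, above the other oleate samples at 12364 to 12635 TPM, a gap of 0.726 of the range. Both values lay below all 6 controls of the same gene.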

How the results depend on the processing

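Of 214 alternative counts of members passing, 202 lay within 1.5 times the reported count. These include the comparisons of CAY10566 with DMSO and the interactions, where no member and almost no gene passed, so agreement there says little. With size factors, 5 members passed for stearate against control, 7 for oleate against control, 5 for stearate+DMSO, 3 for stearate+CAY10566, 7 for oleate+DMSO and 2 for oleate+CAY10566, each against its own control, and the median change of all genes in oleate+DMSO moved from 0.11 to -0.0024 (log2). Without a filter, 5 passed for stearate+DMSO. For oleate+CAY10566, 1 passed at a mean TPM of at least 5 and 1 with the length and GC trend removed. Leaving out 1 sample gave 5 to 8 members for stearate+DMSO (5 without DMSO replicate 2 and without stearate+DMSO replicate 2) and 0 to 4 for oleate+CAY10566 (4 without CAY10566 replicate 3). The log2 ratio of GCLC to GCLM ran from 0.16 to 0.29 for stearate and from 0.21 to 0.37 for oleate against control when a sample was left out, and passed only without CAY10566 replicate 3. Of 546 log2 fold changes of members, none reversed, 10 lost and 8 gained their call, and the cause was not tested. Same-numbered samples did not deviate together (45 pairs, correlation -0.18 to 0.10, 2 over 0.1), and the fit with the replicate block gave 8 members for stearate, 4 for oleate and 8 for stearate against oleate. Of 144 list counts, 56 moved by over 1.5 times. Depth is unknown and its effect could not be assessed.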
